A study of Mus musculus with 20 samples.

Results

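Monocytes sorted from MC38 tumours of mice given an antibody to PD-L1 (5 libraries, labelled Monocyte aPDL1) were compared with monocytes sorted from MC38 tumours of control mice (5 libraries, labelled Monocyte ctrl). These 10 libraries belong to a series of 20, and were chosen by their titles alone; the other 10 hold macrophages from the same 2 treatments. MC38 is a mouse colon carcinoma line, and RNA was isolated 7 days after treatment began, so all groups share the tumour line and the day. The sources used here do not give the strain, age and sex of the mice, the antibody's clone and dose, the controls' treatment or the sort gates. Nor do they state whether each library is its own animal, so every p-value reflects only how far these samples spread, and that spread may be technical. Every control library has a lower sample number than every treated one, so treatment and sample order cannot be told apart. Libraries are called control 1 to 5 and treated 1 to 5 in the order of deposit, which is only a name.

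PD-L1, encoded by Cd274, binds the inhibitory receptor PD-1 on T cells, and blocking it lets T cells stay active and release interferon-gamma. Classical monocytes carry Ly6C and the chemokine receptor CCR2, enter tumours from the blood and mature there into macrophages, and they respond to interferon-gamma by making nitric oxide, complement proteins and ligands of T cells. Like other cells they make cholesterol through a chain of enzymes that the factor SREBP2 switches on when sterols are scarce, while the sterol sensor LXR switches on cholesterol export when sterols are plentiful.

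The monocyte libraries held 32243102 to 35751667 counts, and 15390 genes passed the filter on low counts. Per the deposited RPKM values, which are per length, the labelled cell type's markers were high in both groups: Ly6c2 had a median of 1060 in control and 1911 in treated libraries, Ccr2 168 and 223. Macrophage genes were also high, with C1qb at 748 and 966, Csf1r at 449 and 666 and Adgre1 at 89.1 and 117, while Mrc1 was at 3.61 and 3.56. Several defining markers of other cells were near 0: the T cell gene Cd3e had medians of 0.275 and 0.523, the neutrophil gene Ly6g 0.190 and 0.293, and the epithelial gene Epcam 0.167 and 0.166. Other members of these lists were higher: the neutrophil gene S100a9 had medians of 94.8 and 112, and the T and NK cell genes Il7r and Gzma 7.14 and 17.9, and 6.46 and 11.3. Fibroblast RNA was also present, with Col3a1 at 168 in control and 12.04 in treated libraries.

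Of the 15390 genes, 1526 rose with anti-PD-L1 (9.92%) and 2374 fell (15.4%) at an adjusted p below 0.05 in edgeR's quasi-likelihood test with Benjamini-Hochberg adjustment, together 25.3%. The rising and falling genes differed in kind. Rising genes were abundant and moved little, with a median log2 fold change of 0.45 and a median level of 6.26 on the log2 CPM scale (CPM is the count scaled to library size), and 111 of them passed a 2-fold change (7.27%). Falling genes were scarce and moved far, with a median log2 fold change of -1.57 and a median level of 1.75 log2 CPM, and 1516 passed a 2-fold change (63.9%). The rising genes took up 27.9% of the monocyte counts and the falling ones 3.48%. All 5 treated libraries lay above all 5 control libraries for 695 rising genes (45.5%), and below them for 274 falling genes (11.5%), against 5.09% and 2.13% of all genes tested. The called genes were picked on the same libraries, so shares above those of all genes were built in. The median log2 fold change of all genes was 0.02. In bulk RNA, fewer cells of a type and less RNA per cell cannot be told apart, which holds for each gene below. The counts rested on single libraries to a degree: without control 3, control 4, treated 1, treated 2 or treated 4 the risers numbered 693, 722, 905, 787 and 876, and without control 3 or control 4 the fallers numbered 1190 and 1489. They also rested on the macrophage libraries, since the test took its spread from all 20 libraries. With the 10 monocyte libraries alone, 678 genes rose and 1341 fell.

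**Figure D1:**
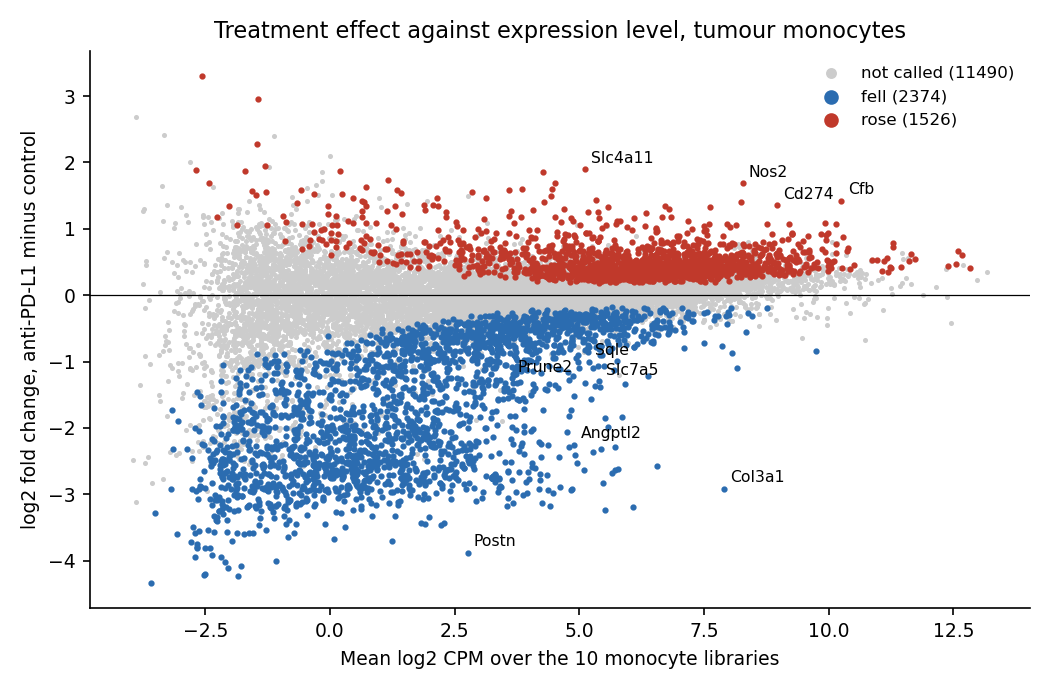
Treatment effect (log2 fold change, anti-PD-L1 minus control) against mean log2 CPM over the 10 monocyte libraries, 1 point a gene, with genes that passed the test in red (rose) and blue (fell). The 1526 rising genes sit at high expression and small effects, and the 2374 falling genes at low expression and large effects.

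The 2 interferon lists account for 58 of the 3900 calls, and the cell cycle and histone lists for 36. All gene lists together hold 464, so most calls lie outside any of them. The lists are short, however. Of 39 interferon-gamma response genes 35 rose, and of 31 type I interferon response genes 23, where 9.92% of all genes rose. The type I count was 15 without control 3 or control 4. Of 38 cell cycle genes 34 fell, and of 6 histone genes tested 2, where 15.4% of all genes fell. Among well expressed genes outside the interferon, cell cycle and fibroblast lists whose groups did not overlap, the largest rise was in Slc4a11, a membrane transporter. Its level was 28.3, 22.2, 16.7, 9.54 and 17.7 CPM in control 1 to 5 and 70.9, 110.0, 75.4, 60.4 and 36.0 CPM in treated 1 to 5, a log2 fold change of 1.90 ± 0.34 (SE, adjusted p = 0.00337). Among genes with an assigned name the next was Nos2, which makes nitric oxide in activated phagocytes, with 99.5 to 298 CPM in control and 301 to 1123 CPM in treated libraries (1.69 ± 0.35, adjusted p = 0.00509). Its groups only just missed overlapping, with treated 4 and control 5 side by side. The chloride channel family gene Clic5, the protease inhibitor Serpina3f, the inositol phosphatase Inpp5j, the secreted nuclease Dnase1l3 and Ly6i rose by 1.60, 1.59, 1.59, 1.49 and 1.40 on the log2 scale. The largest fall was in Angptl2, a secreted angiopoietin-like protein, at 69.5, 46.1, 109.6, 95.4 and 29.7 CPM in control and 10.4, 11.6, 24.1, 13.1 and 14.5 CPM in treated libraries (-2.25 ± 0.32, adjusted p = 0.00325). The growth factor binding protein Igfbp6, the tankyrase partner Tnks1bp1, the membrane trafficking gene Ehd2, the folate carrier Slc19a1 and the transcription factor Snai1 had log2 fold changes of -1.99, -1.52, -1.47, -1.31 and -1.28.

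Fibroblast RNA moved with treatment, and its part in these results was tested only through the covariate below. The 19 fibroblast markers summed to 432 to 4447 CPM in control and 87.3 to 705 CPM in treated libraries, and 13 of the 19 fell, or 5 without control 3. Col3a1 measured 967, 532, 1768, 963 and 184 CPM in control 1 to 5 and 26.3, 40.6, 258, 67.8 and 192 CPM in treated 1 to 5. Control 5 thus lay among the treated libraries. Col3a1 passed the test (-2.92 ± 0.84, adjusted p = 0.0179), whereas Col1a1 (-1.11 ± 0.59, adjusted p = 0.175) and Col1a2 (-0.47 ± 0.60, adjusted p = 0.595) did not. The collagen level of a library, the mean log2 CPM of these 3 genes, was 5.39 ± 1.12 in control and 3.81 ± 1.07 in treated monocytes (SD, n = 5 each; p = 0.0635 in a two-sided exact permutation test, where the smallest possible p is 0.00794). It passed without control 5 (p = 0.0159, exact permutation test) or without treated 5 (p = 0.0317, exact permutation test). By library it was 5.87, 5.49, 6.69, 5.31 and 3.62 in control 1 to 5 and 2.24, 4.10, 4.19, 3.41 and 5.13 in treated 1 to 5.

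Within the groups, the falling genes followed collagen and the rising ones went against it. Among fallers, 2291 (96.5%) sloped upward with the collagen level within monocyte groups, against 47.4% of all genes tested, and of those that rose 170 (11.1%) had one. The slopes themselves passed an unadjusted p of 0.05 in the positive direction for 1255 falling genes (52.9%) and 7 rising genes (0.459%). Over all genes tested, 10.9% had such a positive slope and 5.72% a negative one, and 0.0195% a positive one at an adjusted p below 0.05. Adding the collagen level as a covariate, with 1 slope per cell type, moved the median log2 fold change of the falling genes from -1.57 to -0.74 and that of the rising genes from 0.45 to 0.32. All 1526 rising genes and 2371 of the falling genes kept their sign. At least 0.75 of the log2 fold change was kept by 688 rising genes (45.1%) and 395 falling genes (16.6%), and less than 0.5 of it by 130 (8.52%) and 1024 (43.1%). The covariate did not level all fibroblast RNA. With it, the 19 fibroblast markers had a median log2 fold change of -0.81. Of these markers 16 were lower and 3 higher, 7 and 1 of them at an unadjusted p below 0.05 in edgeR's test. An unadjusted p below 0.05 in the same direction was reached by 748 rising (49.0%) and 671 falling genes (28.3%), where 5.89% and 5.2% of all genes tested reached it upward and downward. These genes were chosen by their effect in the same libraries, so a share above that of all genes was built in.

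**Figure D2:**
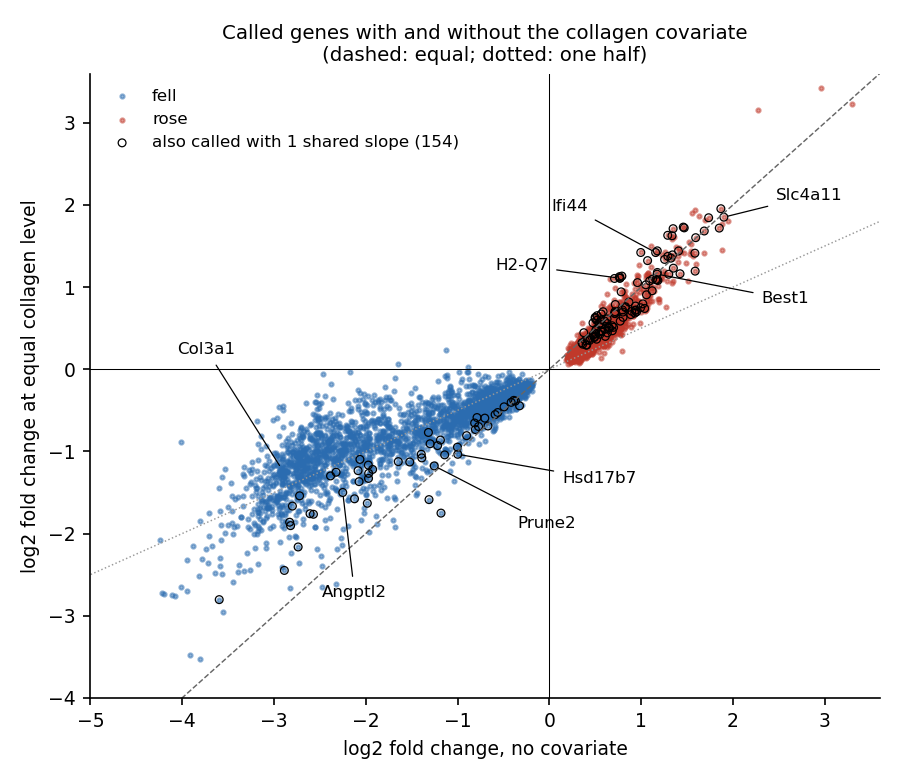
log2 fold change at equal collagen level against that without the covariate, for the 1526 genes that rose (red) and the 2374 that fell (blue), with the 105 rising and 49 falling genes that also passed with 1 collagen slope shared by both cell types circled. Red points lie near the dashed line of equality, and many blue points lie above the dotted line, where less than 0.5 of the log2 fold change is left.

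At an adjusted p below 0.05 at equal collagen level, 4 genes rose (0.026% of those tested) and 1 fell (0.0065%), and all 5 had passed without the covariate in the same direction. Prune2, which encodes a large protein with a BCH domain, fell. Its level was 18.1, 18.3, 24.8, 17.6 and 17.98 CPM in control 1 to 5 and 8.96, 6.21, 8.96, 8.19 and 8.25 CPM in treated 1 to 5, with no overlap and with control 5, the control library lowest in collagen, at the level of its group. Its log2 fold change was -1.25 ± 0.16 without (adjusted p = 0.00191) and -1.18 ± 0.17 with the covariate (adjusted p = 0.0314). Best1, which encodes a calcium-activated chloride channel, rose from 3.41, 3.76, 2.75, 3.64 and 3.07 CPM to 6.505, 8.998, 6.68, 8.71 and 6.67 CPM, again without overlap (1.17 ± 0.18 without and 1.16 ± 0.19 with the covariate, adjusted p = 0.0331). The interferon-induced gene Ifi44 rose from 38.7, 28.4, 24.6, 26.5 and 24.2 CPM to 44.7, 61.9, 63.3, 65.4 and 82.7 CPM, and its fold change was 1.16 ± 0.19 without and 1.42 ± 0.23 with the covariate (adjusted p = 0.0331). In Ifi44 the treated libraries were ordered much as their collagen levels, with treated 1 lowest and treated 5 highest in both. H2-Q7 and H2-Q9, which encode the nonclassical class I molecule Qa-2, had identical counts in 19 of 20 libraries, so their reads cannot be assigned to one of them. Both read 62.7 to 110.2 CPM in control and 113.9 to 183 CPM in treated libraries (0.77 ± 0.16 without and 1.11 ± 0.18 with the covariate, adjusted p = 0.0331).

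**Figure D3:**
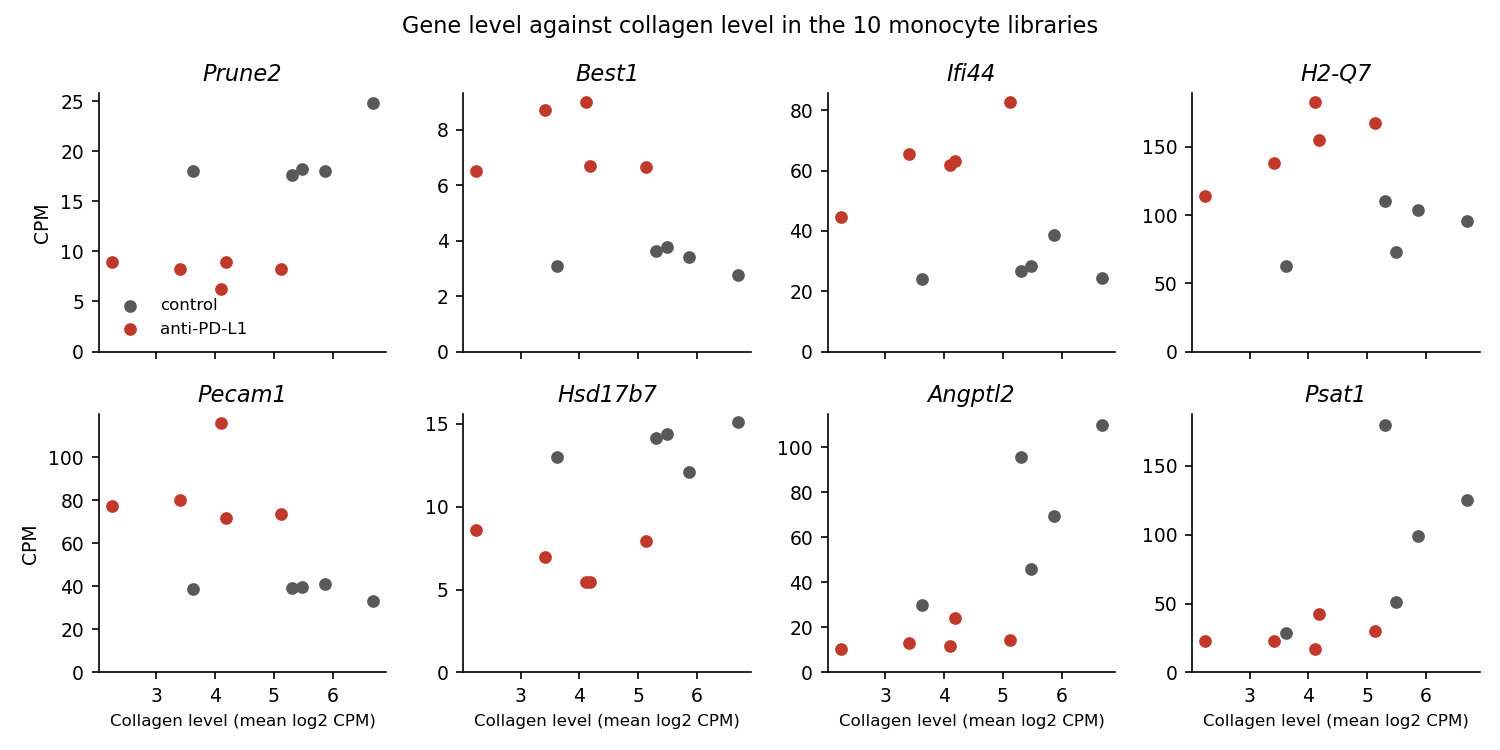
CPM of 8 genes against the collagen level (mean log2 CPM of Col1a1, Col1a2 and Col3a1), 1 point for each of the 5 control (grey) and 5 treated (red) monocyte libraries. Prune2, Best1, Pecam1 and Hsd17b7 separate the groups over the collagen range shown, while for Psat1 the control library lowest in collagen, at 28.7 CPM, lies among the treated ones.

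The number of genes that passed at equal collagen level depended on the model and on single libraries. With the neighbouring sample numbers as a replicate block (limma-voom), 24 rose and 5 fell, with 1 collagen slope for both cell types 105 rose (0.682%) and 49 fell (0.318%), and every one of those had also passed without the covariate. With the 10 monocyte libraries alone, or with the fibroblast marker level as the covariate, 0 rose and 0 fell in edgeR's quasi-likelihood test at the adjusted threshold. Leaving out 1 monocyte library gave 0 rising genes in 7 of 10 fits, 1 without control 1, 4 without control 3 and 6 without control 4, and 0 or 1 falling gene. The effect of Prune2 stayed between -1.22 and -1.07 in these 10 fits, of Best1 between 1.02 and 1.26, of Ifi44 between 1.31 and 1.498 and of H2-Q7 between 0.996 and 1.22. Only 1 control and 3 treated libraries lie in the collagen range both groups share, so the comparison at equal collagen level leans on the fitted slope. Genes that passed with the shared slope only included the adhesion molecule Pecam1, the collagenase Mmp13, Serpina3f, Cfb, Cd274 and Slc4a11.

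Pecam1 rose from 40.9, 39.9, 33.2, 39.3 and 38.6 CPM to 77.1, 115.8, 71.7, 80.0 and 73.5 CPM, the lowest treated library being well above the highest control (1.12 ± 0.15, adjusted p = 0.00284, and 1.10 ± 0.21 at equal collagen level). The 10 endothelial markers tested, whose list does not hold Pecam1, had log2 fold changes from -1.73 to 1.05, with a median of -0.41. The treated libraries lay wholly above the control ones for 1 of these markers and wholly below them for 1. At the adjusted threshold Kdr and Eng rose (0.88 and 0.43). Kdr missed the threshold under the replicate block (adjusted p = 0.0527), and neither passed without control 1, control 3, control 4, treated 2 or treated 4. Cd274, which encodes PD-L1 itself, measured 420, 290, 259, 243 and 400 CPM in control and 776, 1359, 776, 606 and 596 CPM in treated libraries (1.35 ± 0.24, adjusted p = 0.00337, and 1.23 ± 0.31 at equal collagen level, adjusted p = 0.179). Mmp13 rose by 1.29 ± 0.19 and held 1.37 ± 0.26 at equal collagen level, with treated 2 at 71.7 CPM and the other treated libraries at 31.7 to 38.4 CPM.

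Cholesterol synthesis was the list with the most members whose treated libraries all lay below the control ones. Of 23 members tested, 12 fell (against 15.4% of all genes) and 0 rose, with a median log2 fold change of -0.50, and the treated libraries lay wholly below the control ones for 9. The median stayed at -0.50 at equal collagen level, where 13 of the 23 were lower at an unadjusted p below 0.05, against 5.2% of all genes, 0 of the 23 passed the adjusted threshold, 4 passed with the shared slope, and 8 of the 23 had a positive slope on collagen. With the fibroblast marker level as the covariate 0 passed, and Dhcr7, Mvk and Lss had log2 fold changes of -0.09, -0.49 and -0.59. Without the covariate, leaving out any 1 library left 11 or 12 falls. The falls ran along the pathway, among them the early enzymes Hmgcs1 (-0.50) and Mvk (-0.83), the isoprenoid step Fdps (-0.92), the squalene steps Sqle (-1.0) and Lss (-1.19), the later sterol steps Cyp51 (-0.52), Msmo1 (-0.51), Hsd17b7 (-1.0), Sc5d (-0.50) and Dhcr7 (-0.55), and the sterol carrier Stard4 (-0.67). The feedback protein Insig1 (-0.12 ± 0.13) and the factor Srebf2 (-0.28 ± 0.13) did not pass the test. Per the deposited RPKM values, Insig1 had medians of 44.6 in control and 45.3 in treated libraries.

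Hsd17b7, a sterol ketoreductase of the later steps, measured 12.1, 14.4, 15.1, 14.1 and 13.03 CPM in control and 8.61, 5.48, 5.43, 6.98 and 7.94 CPM in treated libraries (-1.0 ± 0.15, adjusted p = 0.00325). At equal collagen level it kept -1.04 ± 0.21 (adjusted p = 0.0996, and 0.0414 with the replicate block in limma-voom). Sqle, the squalene epoxidase, measured 47.2, 53.9, 60.5, 53.1 and 47.5 CPM in control and 30.3, 18.9, 21.1, 28.0 and 32.7 CPM in treated libraries (-1.0 ± 0.16, adjusted p = 0.00325, and -0.95 ± 0.21 at equal collagen level, adjusted p = 0.139, or 0.0292 with the block). Treated 2 and treated 3 were the 2 lowest libraries for both genes. Lss, the lanosterol synthase, was at 12.2 to 25.6 CPM in control and 6.66 to 10.8 CPM in treated libraries (-1.19 ± 0.20, adjusted p = 0.00325, and -0.86 ± 0.21 at equal collagen level, adjusted p = 0.174). In Lss the control library lowest in collagen, control 5, was also the lowest control.

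The promoters of this group are shown because 16 of the 16 members with a RefSeq promoter window held the letters CCAAT on either strand in at least 1 window, against 41.1% of all genes. CCAAT is the box bound by the factor NF-Y, which is known to act beside SREBP2. The cell cycle list also stood above that background, with 24 of 32 genes, and the genes that rose and fell were at 42.2% and 46.9%. TCACNCCAC, a form of the sterol regulatory element, was in 1 of the 16 (Hmgcs1) and in 1.44% of all genes. A match is a description of letters, not of a bound site. The windows run from 250 bases before the start to 50 after it, on GRCm38.p6, and the part before the start is printed, with CCAAT (or ATTGG on the strand shown) and, in Hmgcs1, TCACNCCAC in capitals. Hmgcs1 lies on the + strand at chr13:119690101-119690350, Hsd17b7 on the - strand at chr1:169969206-169969455 and Lss on the + strand at chr10:76531355-76531604.
Hmgcs1: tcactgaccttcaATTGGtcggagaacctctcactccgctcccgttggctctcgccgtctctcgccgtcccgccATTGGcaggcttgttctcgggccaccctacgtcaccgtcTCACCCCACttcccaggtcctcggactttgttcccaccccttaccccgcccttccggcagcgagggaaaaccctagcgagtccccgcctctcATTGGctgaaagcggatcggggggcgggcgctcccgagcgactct
Hsd17b7: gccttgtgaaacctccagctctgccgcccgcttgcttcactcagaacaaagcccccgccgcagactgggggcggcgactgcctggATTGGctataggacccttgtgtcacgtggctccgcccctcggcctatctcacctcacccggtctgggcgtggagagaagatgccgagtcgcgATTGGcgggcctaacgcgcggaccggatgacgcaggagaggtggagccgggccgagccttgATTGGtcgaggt
Lss: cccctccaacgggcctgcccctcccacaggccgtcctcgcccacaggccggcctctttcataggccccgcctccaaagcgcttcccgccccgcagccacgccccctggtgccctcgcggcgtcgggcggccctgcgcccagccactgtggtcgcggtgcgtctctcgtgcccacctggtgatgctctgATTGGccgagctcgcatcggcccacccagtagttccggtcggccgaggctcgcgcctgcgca
The printed parts hold 3, 3 and 1 CCAAT boxes. Hmgcs1, the only one with the sterol element, had a smaller log2 fold change (-0.50) than Hsd17b7 and Lss.

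The list of fatty acid and LXR genes was split. Nr1h3, which encodes LXR-alpha, is not a member of this list. It rose from 24.3, 27.9, 19.5, 12.8 and 29.5 CPM to 38.5, 46.6, 46.4, 40.9 and 35.5 CPM (0.87 ± 0.19, adjusted p = 0.00558, and 0.74 ± 0.23 at equal collagen level). Of 31 fatty acid and LXR genes, 6 rose and 7 fell (all genes 9.92% and 15.4%), with a median of -0.09. Those that rose were the exporters Abca1 (0.79) and Abcg1 (0.82), the ubiquitin ligase Mylip (0.55), the lipid droplet coat Plin2 (0.68) and the fatty acid oxidation genes Cpt1a (0.63) and Acadl (0.36). Those that fell were the synthesis and desaturation enzymes Fasn (-1.34), Acaca (-0.55), Scd1 (-2.88), Scd2 (-1.10), Elovl6 (-0.95), Fads1 (-1.39) and Fads2 (-2.86). Among the enzymes that fell, the control library lowest in collagen lay low: Fads1 was at 26.3 CPM in control 5, within the treated range of 20.5 to 37.1 CPM, and at 46.4 to 116 CPM in the other controls. At equal collagen level Scd1, Fads2 and Fads1 kept -1.31, -1.34 and -0.79, and Abcg1 and Plin2 kept 0.72 and 0.66.

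**Figure D4:**
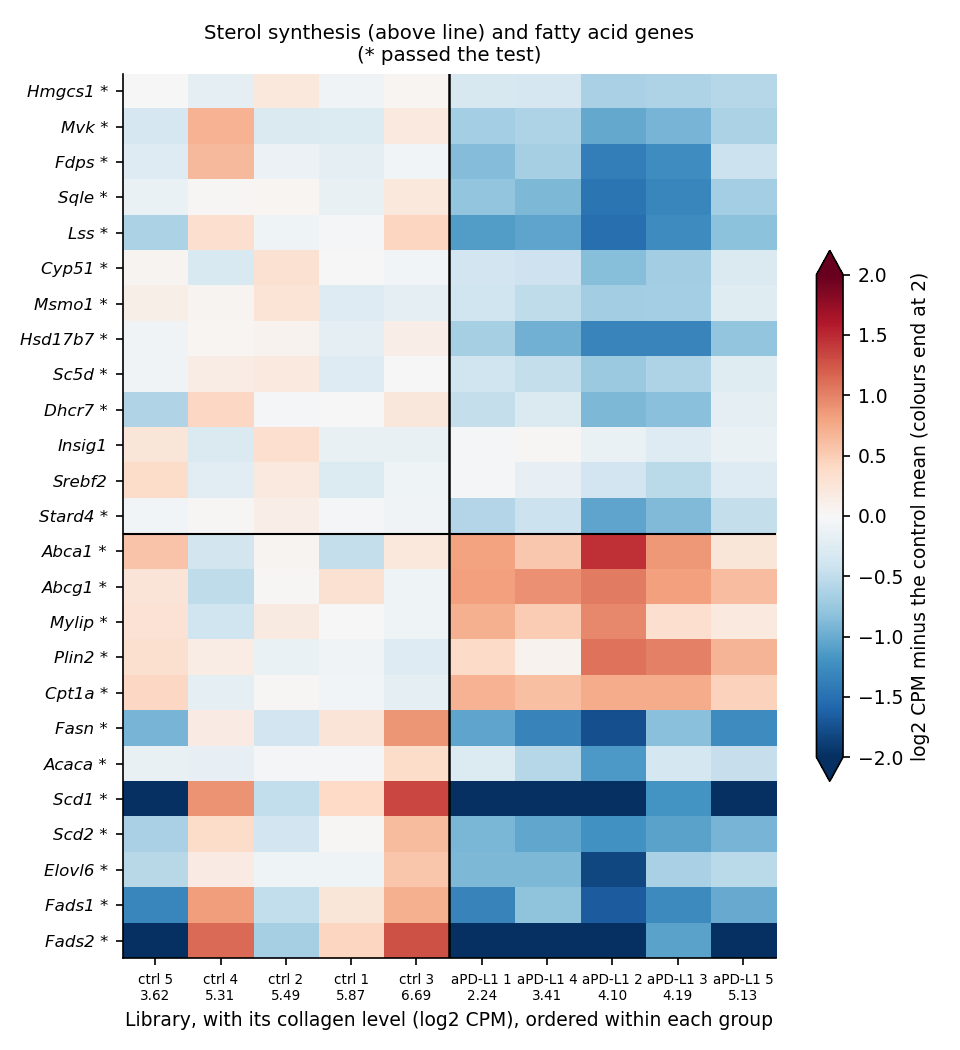
log2 CPM minus the control mean for the sterol synthesis genes named in the text (above the line) and export and fatty acid genes (below it), in the 5 control and 5 treated monocyte libraries, each group ordered by its collagen level (log2 CPM, under each name); colours end at 2 in either direction. The sterol genes marked with an asterisk, which passed the test, are lower across the treated libraries, while Fads1, Fads2 and Scd1 are also low in the control library lowest in collagen.

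In 1-carbon, nucleotide and amino acid synthesis, 22 of 26 genes fell, against 15.4% of all genes, and 1 rose (Ctps2). Of the 26, 25 had a positive slope on collagen, with a median of -0.61 that became -0.38 at equal collagen level. Psat1, of serine synthesis, measured 99.3, 51.4, 125, 179 and 28.7 CPM in control and 22.7, 16.8, 42.4, 23.0 and 29.9 CPM in treated libraries (-1.85 ± 0.38, adjusted p = 0.00485, and -1.14 ± 0.47 at equal collagen level). Control 5 overlapped the treated libraries. Ctps and Atic, of pyrimidine and purine synthesis, fell by 1.34 and 0.78 on the log2 scale. Of 18 amino acid transporters and targets of the stress factor ATF4, 9 fell and 0 rose, or 5 fell without control 3, and 7 of the 18 were higher in treated libraries. Slc7a5, the leucine carrier LAT1, measured 40.1 to 103 CPM in control and 22.9 to 34.9 CPM in treated libraries (-1.30 ± 0.23, adjusted p = 0.00337), and Slc7a1, the arginine carrier, 47.9 to 81.8 and 27.2 to 36.9 CPM (-0.90 ± 0.16, adjusted p = 0.00337). Their groups did not overlap, and they kept -0.91 and -0.81 at equal collagen level and passed with the shared slope. Atf5 and Trib3 fell by 1.33 and 1.51.

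Of 32 ribosome biogenesis genes, 20 fell, against 15.4% of all genes, and 1 rose (Heatr1), with a median of -0.38 (-0.26 at equal collagen level), and the falls numbered 9 to 13 without control 1, 3 or 4 or treated 2 or 4. Gar1, Gnl3 and Nhp2 had log2 fold changes of -0.71, -0.57 and -0.77, and the transcription factor Myc, which is known to drive these genes, fell by 0.49 ± 0.14 (adjusted p = 0.0155), with groups that overlapped. Of 37 cytosolic ribosomal proteins 2 fell and of 31 mitochondrial ones 6, the latter near the share of all genes that fell (15.4%), with medians of -0.28 and -0.20; the first count was 1 to 11 and the second 2 to 7 with 1 library left out, highest without treated 5 for the first and lowest without control 3 for the second. Of 33 DNA repair genes 12 fell (all genes 15.4%) and 2 rose, or 7 fell without control 3 or control 4. One of the risers was Fanca, at 22.6 to 35.1 CPM in control and 38.7 to 52.2 CPM in treated libraries (0.57 ± 0.12, adjusted p = 0.00509), which reached 0.67 at equal collagen level.

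Across all genes 9.92% rose and 15.4% fell. The counts in the respiratory chain, proteasome, splicing, glycolysis and hypoxia lists were below or near these shares. Of 36 respiratory chain genes 0 rose and 1 fell (Cox6c, by 0.48), of 28 constitutive proteasome subunits 0 rose and 0 fell in edgeR's test, of 30 splicing genes 0 rose and 1 fell (Snrpf, by 0.85), of 24 glycolysis genes 2 rose and 1 fell, and of 19 hypoxia genes 0 rose and 3 fell, or 0 fell without control 3. Without control 5, 7 glycolysis genes rose. Their medians lay between -0.08 and 0.16. In the citrate cycle list 5 of 27 fell, among them Idh3a, at 42.8 to 54.3 CPM in control and 30.3 to 39.5 CPM in treated libraries (-0.45 ± 0.09, adjusted p = 0.00529), with the same -0.45 at equal collagen level. Hk3, the myeloid hexokinase, rose by 0.85 ± 0.22. The 10 mitochondrially encoded genes had a median of -0.24 with 0 calls, and of 12 stress and dissociation genes 1 rose (Fos, by 0.35, not with the replicate block, adjusted p = 0.0503).

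**Figure D5:**
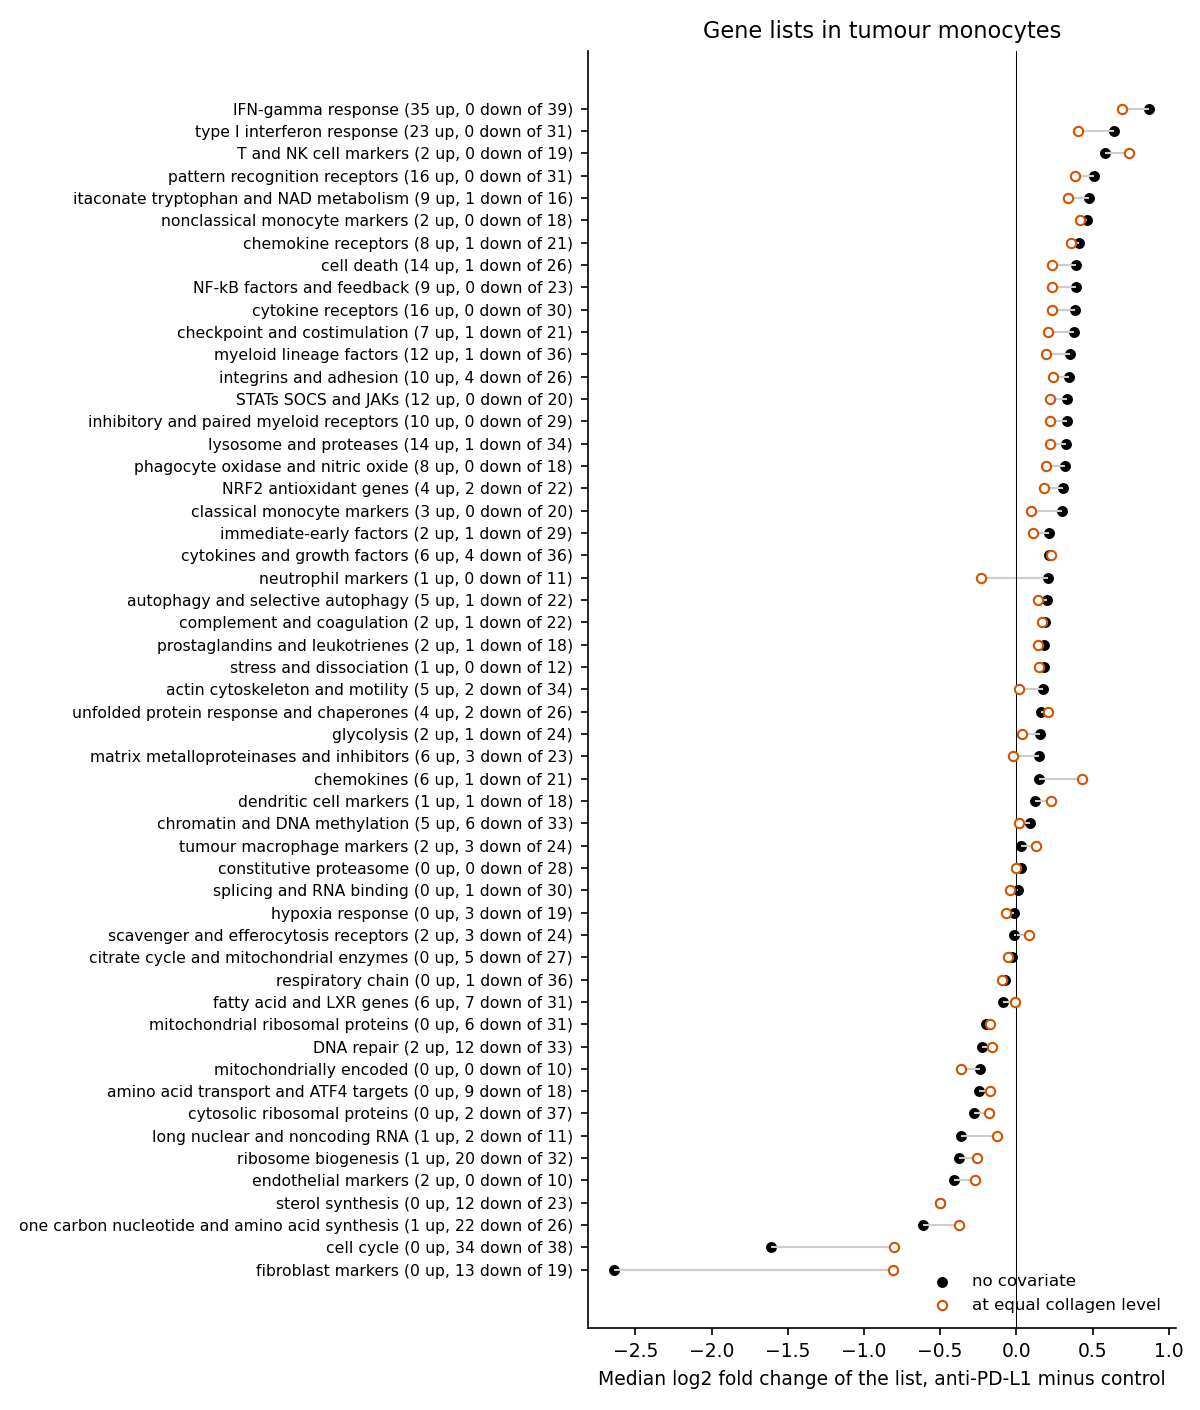
Median log2 fold change of each gene list with at least 10 genes tested, without a covariate (black) and at equal collagen level (orange), with the numbers of genes that rose and fell in brackets. The sterol synthesis points coincide at -0.50, while the cell cycle list goes from -1.61 to -0.80 and the fibroblast list from -2.64 to -0.81.

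Among secreted ligands, 6 of 21 chemokines rose, against 9.92% of all genes, and 1 fell, with a median of 0.15 that was 0.43 at equal collagen level; 3 rose without treated 2. Cxcl16, which attracts CXCR6+ T cells, measured 390 to 596 CPM in control and 669 to 994 CPM in treated libraries (0.61 ± 0.13, adjusted p = 0.0055). Cxcl2, a neutrophil attractant, rose by 0.70 ± 0.18 and was at 0.85 ± 0.23 at equal collagen level. Cxcl14 went down, from 49.8, 46.5, 46.3, 52.6 and 51.2 CPM to 42.9, 31.6, 23.6, 28.1 and 36.8 CPM (-0.60 ± 0.17, adjusted p = 0.0169). Its control libraries lay close together and all treated ones lay below them. Of 36 cytokines and growth factors, 6 rose and 4 fell (all genes 9.92% and 15.4%), or 12 rose without control 5 and 3 without treated 2. Ebi3, a subunit shared by IL-27 and IL-35, was at 17.3, 19.7, 16.2, 19.7 and 17.8 CPM in control and 26.5, 31.3, 25.9, 29.1 and 27.6 CPM in treated libraries (0.63 ± 0.10, adjusted p = 0.00325, and 0.61 ± 0.13 at equal collagen level). Its partner Il27 rose by 0.65, as did the IL-1 receptor antagonist Il1rn (1.08) and the B cell factor Tnfsf13b (0.69). The 4 that fell were Vegfb (-1.67), Pdgfc (-2.39), Bmp2 (-1.56) and Pdgfa (-0.60), or 2 without control 1, control 3, treated 2 or treated 4. With the replicate block, Pdgfc, Bmp2 and Pdgfa missed the threshold (adjusted p = 0.135, 0.0648 and 0.0687).

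The receptor lists differed. Of 24 scavenger and efferocytosis receptors 2 rose and 3 fell, near the shares of all genes (9.92% and 15.4%), with a median of -0.02. Without control 1, 3 or 4 or treated 1, 2, 3 or 5, 1 rose, and without control 5, 5 fell. Of 31 pattern recognition receptors 16 rose, against 9.92% of all genes, and 0 fell, with a median of 0.51 (0.39 at equal collagen level), though 7 to 10 rose without control 3 or 4 or treated 1, 2 or 4. Tlr4, the endotoxin receptor, measured 40.9, 41.7, 38.6, 42.6 and 46.6 CPM in control and 68.8, 77.7, 52.4, 61.2 and 59.7 CPM in treated libraries (0.60 ± 0.09, adjusted p = 0.00325). Tlr6 rose by 0.69 ± 0.12 and the flagellin sensor partner Nlrc4 by 0.59 ± 0.11, both without overlap between groups. Of 30 cytokine receptors 16 rose and 0 fell, or 7 to 10 without control 1, 3 or 4 or treated 2; the common gamma chain Il2rg rose by 0.64, and the interferon receptor chains Ifngr2 and Ifnar2 by 0.37 and 0.38. Of 21 chemokine and chemoattractant receptors 8 rose and 1 fell (Ackr3), or 2 to 4 rose without control 3 or 4 or treated 2. Gpr35 was at 283 to 447 CPM in control and 521 to 568 CPM in treated libraries (0.57 ± 0.11, adjusted p = 0.00386), and the formyl peptide receptors Fpr2 and Fpr1 rose by 1.04 and 1.19, the second not with the replicate block (adjusted p = 0.0661). The classical monocyte receptor Ccr2 did not pass (0.17 ± 0.19, adjusted p = 0.548).

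Of 29 inhibitory and paired myeloid receptors 10 rose and 0 fell, where 9.92% of all genes rose and 15.4% fell. Without control 3 or 4 or treated 4, 4 to 6 of these receptors rose. Cd200r4 rose from 7.39 to 12.4 CPM in control to 15.2 to 35.4 CPM in treated libraries (1.18 ± 0.21, adjusted p = 0.00337), and Ly9, a SLAM family receptor, from 35.3 to 46.5 CPM to 61.0 to 78.6 CPM (0.72 ± 0.14, adjusted p = 0.00386). Both passed with the shared slope. Of 21 checkpoint and costimulation genes 7 rose and 1 fell (Nectin3), or 12 rose without control 5; Slamf7 rose by 1.34, Slamf8 by 0.90 and the CD28 ligand Cd86 by 0.60. Fcgr4, the activating Fc receptor for IgG2, measured 332 to 630 CPM in control and 784 to 999.5 CPM in treated libraries (0.78 ± 0.20, adjusted p = 0.0107). Of 26 integrin and adhesion genes 10 rose and 4 fell, the falls near the share of all genes (15.4%). Without control 3 or 4 or treated 1, 4 to 6 rose, and without control 3 or 4, 2 fell. The fallers included the tetraspanins Cd63 (-1.57) and Cd81 (-1.07), whose groups overlapped.

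Among signalling genes, 9 of 23 NF-kB factors and feedback genes rose and 0 fell, 12 of 20 STAT, SOCS and JAK genes rose and 0 fell, and 12 of 36 myeloid lineage factors rose and 1 fell (Zeb1), where 9.92% of all genes rose. The first count was 4 to 5 without control 1, 3 or 4 or treated 1, 2, 3 or 4, the second 3 to 6 without control 3 or 4 or treated 1, 2 or 4, and the third 4 to 5 without control 1, 3 or 4 or treated 1, 2 or 4. Map3k8, the kinase Tpl2, measured 65.3 to 98.7 CPM in control and 108 to 126 CPM in treated libraries (0.55 ± 0.09, adjusted p = 0.00325). Tnfaip2 rose by 1.07 ± 0.23 and Irf2 by 0.51 ± 0.10. Of 29 immediate-early factors 2 rose and 1 fell, or 1 rose without control 1, 3 or 4 or treated 1, 2 or 4 and 6 without control 5. The zinc finger factor Klf6 rose, at 412, 342, 348, 326 and 390 CPM in control and 533, 649.9, 543, 507 and 523 CPM in treated libraries (0.60 ± 0.12, adjusted p = 0.00386, and 0.59 ± 0.15 at equal collagen level).

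Of 18 oxidase and nitric oxide genes of phagocytes 8 rose, against 9.92% of all genes, and 0 fell, or 3 to 5 without control 1, 3 or 4 or treated 1 or 2. Cybb, the catalytic subunit of the phagocyte NADPH oxidase, measured 869.7, 1086, 720.4, 835 and 1089 CPM in control and 1409, 1258, 1608, 1477 and 1428 CPM in treated libraries (0.64 ± 0.12, adjusted p = 0.00358, and 0.51 ± 0.13 at equal collagen level). Arginase 2, encoded by Arg2, rose by 1.17 ± 0.26. Of 22 complement and coagulation genes 2 rose, near the share of all genes, and 1 fell, or 1 rose without control 4. Complement factor B, encoded by Cfb, measured 452 to 947 CPM in control and 1478 to 2822 CPM in treated libraries (1.42 ± 0.21, adjusted p = 0.00325), and C3 rose by 0.91 ± 0.26. Of 16 genes of itaconate, tryptophan and NAD metabolism 9 rose and 1 fell, or 5 rose without control 3; the NAD-consuming surface enzyme Bst1 rose by 1.12 ± 0.21. Of 26 cell death genes 14 rose and 1 fell, or 7 to 8 without control 3 or 4 or treated 2, with Pmaip1 at 0.59, Casp4 at 0.63 and Ripk1 at 0.49. Of 34 lysosomal genes 14 rose and 1 fell (Gaa), or 4 to 9 without control 1, 3 or 4 or treated 1, 2, 4 or 5; the acid lipase Lipa, which frees cholesterol from its esters, rose by 0.39 ± 0.09 and was at 0.43 ± 0.11 at equal collagen level. Of 23 metalloproteinases and inhibitors 6 rose and 3 fell, or 2 to 3 rose without control 3 or 4 or treated 1, 2, 3 or 4, the fallers being Timp2 (-1.84), Mmp2 (-2.44) and Mmp11 (-3.12).

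An interferon response core, GAAA, any 2 bases and GAAA on either strand, was in the promoter windows of 9.70% of the genes that rose and 3.55% of those that fell, against 3.99% of all genes. Cybb and Slamf8, which are in neither interferon list, are shown as examples, with the core or its reverse complement in capitals. The parts before the start lie on GRCm38.p6 on the - strand, Cybb at chrX:9469325-9469574 and Slamf8 at chr1:172590569-172590818.
Cybb: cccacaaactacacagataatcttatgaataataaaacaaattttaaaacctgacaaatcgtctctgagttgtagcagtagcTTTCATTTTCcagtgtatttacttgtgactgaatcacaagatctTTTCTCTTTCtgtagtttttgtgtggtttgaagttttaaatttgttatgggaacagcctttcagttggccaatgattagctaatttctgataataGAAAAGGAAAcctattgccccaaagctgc
Slamf8: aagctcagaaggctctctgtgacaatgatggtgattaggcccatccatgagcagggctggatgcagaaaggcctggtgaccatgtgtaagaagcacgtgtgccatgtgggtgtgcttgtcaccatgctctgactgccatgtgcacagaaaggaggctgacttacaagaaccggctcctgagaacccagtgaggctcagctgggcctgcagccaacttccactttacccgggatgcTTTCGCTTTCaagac
Cybb holds 3 matches and Slamf8 1. Slamf8 measured 95.9 to 185 CPM in control and 203 to 354 CPM in treated libraries (0.90 ± 0.21, adjusted p = 0.0070).

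Markers of the sorted cells rose about as often as all genes did (9.92%) and did not fall more often (15.4%). Of 20 classical monocyte markers 3 rose, among them Ly6a and Ms4a4c, and 0 fell, or 6 rose without control 5. Of 18 nonclassical markers 2 rose and of 24 tumour macrophage markers 2 rose and 3 fell, and in both lists 0 rose without control 3, control 4 or treated 1. Ly6c2 measured 506 to 1277 CPM in control and 1191 to 2023 CPM in treated libraries, and did not pass (0.79 ± 0.34, adjusted p = 0.0941), nor did Itgam (0.25 ± 0.18) or Adgre1 (0.30 ± 0.14). Of 19 T and NK cell markers 2 rose (Il7r and Foxp3), or 1 without any 1 library but control 2 or control 5, and the list summed to 53.4 to 101 CPM in control and 77.4 to 197 CPM in treated libraries. Il7r measured 26.6, 23.0, 22.6, 21.4 and 38.6 CPM in control and 42.3, 146, 76.2, 35.7 and 57.6 CPM in treated libraries (1.44 ± 0.30, adjusted p = 0.00483), with treated 4 below control 5. Cd3e was near 0 in both groups, as given above. The neutrophil list summed to 278 to 558 CPM in control and 342 to 746 CPM in treated libraries, with 1 of 11 rising (Csf3r). The part of these other cells in the results was not tested.

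No gene's treatment effect differed between monocytes and macrophages at an adjusted p below 0.05 in edgeR's test (0 of 15390), while 980 genes (6.37%) did at an unadjusted p below 0.05. That test left out the pairing of neighbouring sample numbers. Limma-voom without the pairing also gave 0 genes, and limma-voom with the neighbouring sample numbers as a replicate block gave 8. Prune2 had the lowest adjusted p in edgeR's test and was among the 8: it changed by -1.25 ± 0.16 in monocytes and -0.0048 ± 0.15 in macrophages, a difference of -1.25 ± 0.21 (adjusted p = 0.174 in edgeR's test and 0.0312 with the block). Also among the 8 was the surface protein gene Cd109, a gene named after its values were seen. With the block, its log2 fold change was 1.30 ± 0.22 higher in monocytes than in macrophages. Such a difference can be a larger rise or a smaller fall, and the effect of Cd109 within each cell type is not given here.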

How the data were processed

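Gene counts and RPKM values were deposited for 20 libraries, 5 in each of 4 groups, and both units are given per the file headers. The deposited counts per gene are whole numbers and were used for all tests, and the authors' RPKM values were used only for marker levels. Reads were aligned with GSNAP to GRCm38, per the submitters' processing notes; no source used here names the counter, annotation or strand setting. Per the labels, 0.1 ug of RNA entered a stranded total RNA kit, while the molecule is labelled as polyA RNA. Gene identifiers were matched to RefSeq symbols for 31049 of 36528 gene models (85.0%), which hold 97.97% of the counts.

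Counts were scaled by TMM and filtered with edgeR's filterByExpr, and all 20 libraries were fitted with 1 mean per group by edgeR's quasi-likelihood test (edgeR 4.0.16, limma 3.58.1, DESeq2 1.42.0, R 4.3.3), with Benjamini-Hochberg adjustment at 0.05 over 15390 genes. The fit was tested on simulated data. For the equal-collagen fit the mean log2 CPM of Col1a1, Col1a2 and Col3a1 (prior count 2) was added. CPM is the count scaled to library size, and 1 read is 0.031 CPM in the shallowest monocyte library.

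Neighbouring sample numbers join 1 macrophage and 1 monocyte library. Deviations from group means correlated by over 0.1 in 10 of 10 such pairs (0.218 to 0.722), so these pairs formed the replicate block. Named genes were the largest separated changes, up to 3 called members of each list with the smallest p, the strongest genes at equal collagen level and a few set genes; further list members were named after their values were seen. Some genes are not reported here. The members and lists were chosen with earlier results of these data known.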

Additional observations from a re-analysis of the deposited data

Results flagged for a closer look

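In 17 of 274 gene and group pairs examined, 1 of the 5 monocyte libraries stood apart from the other 4, and chance gives about 1 in 20 such groups. Among control libraries, control 3 was high for Prune2 (24.8 CPM, the others 17.6 to 18.3), Acaca (21.0 CPM, the others 14.4 to 15.9) and Slc7a1 (81.8 CPM, the others 47.9 to 55.3). It was low for Pecam1 (33.2 CPM, the others 38.6 to 40.9) and Cxcl16 (390 CPM, the others 542 to 596). Control 4 was high for Fdps (17.4 CPM, the others 9.29 to 10.7) and low for Tnfaip2 (239 CPM, the others 452 to 472). Control 5 was high for Cd3e (1.002 CPM, the others 0.407 to 0.500).

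Among treated libraries, treated 2 was high for Pecam1 (116 CPM, the others 71.7 to 80.0), Mmp13 (71.7 CPM, the others 31.7 to 38.4) and Klf6 (649.9 CPM, the others 507 to 543). It was low for Prune2 (6.21 CPM, the others 8.19 to 8.96) and Elovl6 (5.197 CPM, the others 9.90 to 12.8). Treated 5 was high for Cox6c (99.4 CPM, the others 76.1 to 80.2) and Foxp3 (20.2 CPM, the others 16.3 to 16.4). Treated 1 was high for Gaa (64.8 CPM, the others 54.1 to 55.04), and treated 3 was low for C1qb (723 CPM, the others 1012 to 1126).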

How the results depend on the processing

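With 1 monocyte library left out, 693 to 2079 genes rose and 1190 to 3280 fell. With the 10 monocyte libraries alone, 678 rose and 1341 fell, and limma-voom called 1377 falls. Only 1 control (control 5) and 3 treated libraries lie in the shared collagen range, so there the fit assumes that the lone control varies like the other groups, and its 0 rises and 0 falls say little. There, 10 named genes that fell changed sign: Psat1 (0.049), Fads1 (0.017), Fads2 (0.12), Ctps (0.046), Gnl3 (0.0046), Vegfb (0.12), Pdgfc (1.62), Nectin3 (0.75), Cd63 (0.043) and Timp2 (0.26, all log2 fold changes); the cause was not tested. At equal collagen level, 105 rose and 49 fell with 1 slope for both cell types, 0 and 0 with the monocyte libraries alone or the fibroblast covariate, and 0 to 6 rose and 0 to 1 fell with 1 library left out. Limma-voom there called 0 falls. The collagen difference of -1.58 was -2.02 without control 5 (exact permutation p = 0.0159) and -1.91 without treated 5 (exact permutation p = 0.0317), and ranged from -2.02 to -1.19 over these fits; the fibroblast marker level differed by -2.28 (exact permutation p = 0.0238). Of 123 named genes that passed, 95 passed in every fit without 1 monocyte library. Named genes were chosen mostly by their change or p in these same libraries, so that share does not describe all called genes.

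With the replicate block (limma-voom, correlation 0.530), 1602 genes rose and 1694 fell, and of the named genes Kdr, Fos, Pdgfc, Bmp2, Pdgfa and Fpr1 no longer passed. At equal collagen level the replicate block gave 24 rises and 5 falls, and for the difference between monocytes and macrophages 8 genes.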
